A study of Mus musculus with 7 samples.

Results

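The genes described are 9 regulators of neurogenesis in the mouse cerebral cortex: Eomes, Neurog1, Neurog2, Neurod1, Neurod2, Insm1, Btg2, Gadd45g and Nhlh1. They were taken by exact symbol from a gene table of 36666 rows, and all 9 were found. Cortical RNA from C57BL/6 mice was sequenced after mRNA library preparation, at embryonic day 17 in 4 samples and in young adults in 3 samples. No genetic change or treatment is named in the labels for either group, and the labels do not say whether a sample came from 1 animal or from a pool. A p-value therefore speaks only to variation among the samples at hand, which may be technical. The adults are labelled as young, with no day or week used here.

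In the developing cortex, glutamatergic neurons come from radial glia, which line the ventricle as stem cells, either directly or through intermediate progenitors that divide in the subventricular zone. Proneural factors are basic helix-loop-helix (bHLH) proteins that bind E-box sequences in DNA as partners of E proteins, start the neuronal programme and switch on Notch ligands, which hold neighbouring cells in the progenitor state. Their action passes in sequence from Neurog1 and Neurog2 in progenitors, through Eomes and Insm1 in intermediate progenitors, to Neurod1, Nhlh1 and Neurod2 in young neurons, while Btg2 and Gadd45g slow the cell cycle.

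Between 18444272 and 23606525 reads per sample fell in genes. A level here is the read count recovered from the deposited value, per 1000000 reads in genes (CPM), with mean ± SD over n = 4 embryonic and n = 3 adult samples. Differences are adult minus embryonic means of the deposited values, which follow log2 at high counts and are compressed at low counts, with their standard error (SE) and limma's adjusted p. Markers of cortical excitatory neurons were present at both stages: Slc17a7, a vesicular glutamate transporter, had 52.2 ± 7.70 CPM in embryonic and 1312 ± 61.1 CPM in adult samples, and the cortical transcription factor Emx1 had 28.8 ± 4.38 and 15.8 ± 1.096 CPM. Adult replicate 2 stood apart in activity-regulated genes: all 10 of a list of such genes, which neurons induce after firing, were highest there among the adults.

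Of the 9 genes, 7 were lower in the adult cortex, none was higher and 2, Btg2 and Gadd45g, did not pass the test. Among all 22828 genes tested, 33.9% were called lower in the adult and 35.8% higher, 69.7% in either direction. In the same 7 genes every adult value lay below every embryonic value, which held for 33.2% of all genes tested, while 68.9% had groups apart in either direction. The median difference of the 9 genes was -2.44, against 0.03 over all genes tested. Centring each sample on its median moved all differences by -0.18 and left the 7 calls in place. In bulk tissue, fewer cells of a type and less RNA per cell cannot be told apart.

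Promoters are shown for the 4 genes that held at least 1 of the 3 motifs set in capitals, since proneural proteins bind E-boxes and many stimulus-induced genes carry a cAMP response element. RefSeq (GRCm38.p6) promoters were matched for 8 of the 9 genes, and the 250 bases before the start site are printed 5′ to 3′ on the gene's strand. Capitals mark the E-box CAGATG, which would read CATCTG on the other strand. They also mark a second E-box, CATATG, and the cAMP response element TGACGTCA. Both E-boxes are of the general form CANNTG, so they overlap with it.
Neurod2, chr11:98329646-98329895, minus strand: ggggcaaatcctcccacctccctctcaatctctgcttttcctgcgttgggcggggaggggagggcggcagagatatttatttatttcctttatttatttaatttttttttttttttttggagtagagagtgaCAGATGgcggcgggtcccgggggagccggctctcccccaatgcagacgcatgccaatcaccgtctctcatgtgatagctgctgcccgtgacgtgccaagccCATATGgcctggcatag
Neurod1, chr2:79456637-79456886, minus strand: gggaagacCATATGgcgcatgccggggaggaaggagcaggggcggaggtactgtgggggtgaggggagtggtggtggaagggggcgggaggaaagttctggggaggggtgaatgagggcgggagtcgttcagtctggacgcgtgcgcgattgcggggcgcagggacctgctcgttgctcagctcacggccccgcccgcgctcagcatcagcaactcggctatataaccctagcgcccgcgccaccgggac
Nhlh1, chr1:172057597-172057846, minus strand: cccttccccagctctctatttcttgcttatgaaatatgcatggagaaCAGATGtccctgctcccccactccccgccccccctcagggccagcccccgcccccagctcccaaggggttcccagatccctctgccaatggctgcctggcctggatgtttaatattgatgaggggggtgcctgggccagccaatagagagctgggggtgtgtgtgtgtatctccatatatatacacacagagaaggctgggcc
Btg2, chr1:134079156-134079405, minus strand: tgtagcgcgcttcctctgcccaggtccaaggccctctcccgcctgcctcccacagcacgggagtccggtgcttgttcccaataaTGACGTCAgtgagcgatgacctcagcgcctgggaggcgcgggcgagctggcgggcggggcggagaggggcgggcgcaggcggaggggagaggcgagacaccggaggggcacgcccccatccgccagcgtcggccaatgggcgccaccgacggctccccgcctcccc

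The Neurod2 promoter held CAGATG at 118 and CATATG at 17 bases before the start, Neurod1 held CATATG at 242 and Nhlh1 held CAGATG at 203. These 3 genes act in young neurons, but the motifs were chosen with the sequences in view, so no pattern by stage can be read from them. Gadd45g held CANNTG in 3 other forms, at 142, 104 and 55 bases before the start. The promoters of Eomes, Neurog1 and Neurog2 held no CANNTG in this window. Btg2 was the only gene of the 8 with TGACGTCA, at 166 bases before the start, and held no CANNTG. Among 32851 mouse promoters of the same length, counted on both strands, CAGATG was present in 14.4%, CATATG in 3.46%, TGACGTCA in 1.55% and CANNTG in 66.2%. Of the 8 genes, 4 held CANNTG. A match is a run of letters and not evidence of binding.

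The proneural factors of progenitors were nearly absent from the adult cortex. Neurog2, which starts the glutamatergic programme in cortical progenitors, stood at 51.7, 61.6, 42.0 and 43.6 CPM in embryonic replicates 1 to 4 and at 1.48, 1.14 and 1.14 CPM in adult replicates 1 to 3. The adult samples still held 26 to 34 reads of it each. All embryonic samples lay far above all adult samples, and the mean fell 39.6-fold, from 49.7 ± 8.98 to 1.26 ± 0.196 CPM (difference -4.76, SE 0.14, limma adjusted p = 2.41e-12). By its difference it was number 30 from the most negative of all genes tested.

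Its relative Neurog1 was scarce at both stages. It had 0.705, 0.753, 0.471 and 0.554 CPM in the 4 embryonic samples, from 10 to 17 reads, and 2, 2 and 0 reads in the adult samples. The 0 in adult replicate 3 allows up to 0.132 CPM, a limit that covers counting error only. The groups did not overlap, and Neurog1 fell (difference -2.30, SE 0.45, adjusted p = 0.000421 in limma). Summed over the samples of each group, its rate was 10.7 times as high in the embryo, with an exact 95% counting interval of 3.95 to 40.9, against 39.7 with an interval of 32.1 to 49.6 for Neurog2.

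On the deposited scale, the value of Neurog1 minus that of Neurog2 was -5.61 ± 0.0888 in embryonic and -3.14 ± 1.03 in adult samples (SD, n = 4 and n = 3, exact permutation p = 0.0286, adjusted over 4 pairs p = 0.0381). The 35 assignments of the samples allow no smaller p than 0.0286. The deposited scale is compressed at the few reads of Neurog1, so this test does not compare the folds. The counting intervals of the folds overlap, which does not show that the folds are equal. In voom on the recovered counts the difference was -3.26 (SE 0.61) for Neurog1 and -5.22 (SE 0.27) for Neurog2. Whether the folds differ was not tested on counts.

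Eomes fell most of the 9 genes. This factor, a T-box protein that marks intermediate progenitors and is also known as Tbr2, measured 89.8, 99.8, 74.9 and 82.3 CPM in embryonic replicates 1 to 4, and 0.960, 0.890 and 0.924 CPM in the adults. The adult samples agreed closely, with 21 to 22 reads each. The mean fell 93.8-fold, from 86.7 ± 10.6 to 0.924 ± 0.0352 CPM (difference -5.90, SE 0.11, limma adjusted p = 6.67e-14). Only 8 of the 22828 genes tested had a more negative difference.

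Insm1, a zinc finger factor that promotes the formation of basal progenitors, stood at 94.3, 100.3, 72.4 and 80.1 CPM in the embryonic samples. The adult samples held 5.67, 7.46 and 4.57 CPM, from 104 to 176 reads. It fell 14.7-fold, from 86.8 ± 12.8 to 5.90 ± 1.45 CPM (difference -3.66, SE 0.15, limma adjusted p = 4.99e-11).

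Eomes and Insm1 kept a steady ratio over the embryonic samples, which changed in the adult. The deposited value of Eomes minus that of Insm1 was 0.00247 ± 0.0541 in embryonic samples and -2.24 ± 0.348 in adult samples (n = 4 and n = 3, exact permutation p = 0.0286, adjusted p = 0.0381). Every adult value of this difference lay below every embryonic value, so Eomes fell by more than Insm1.

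**Figure D1:**
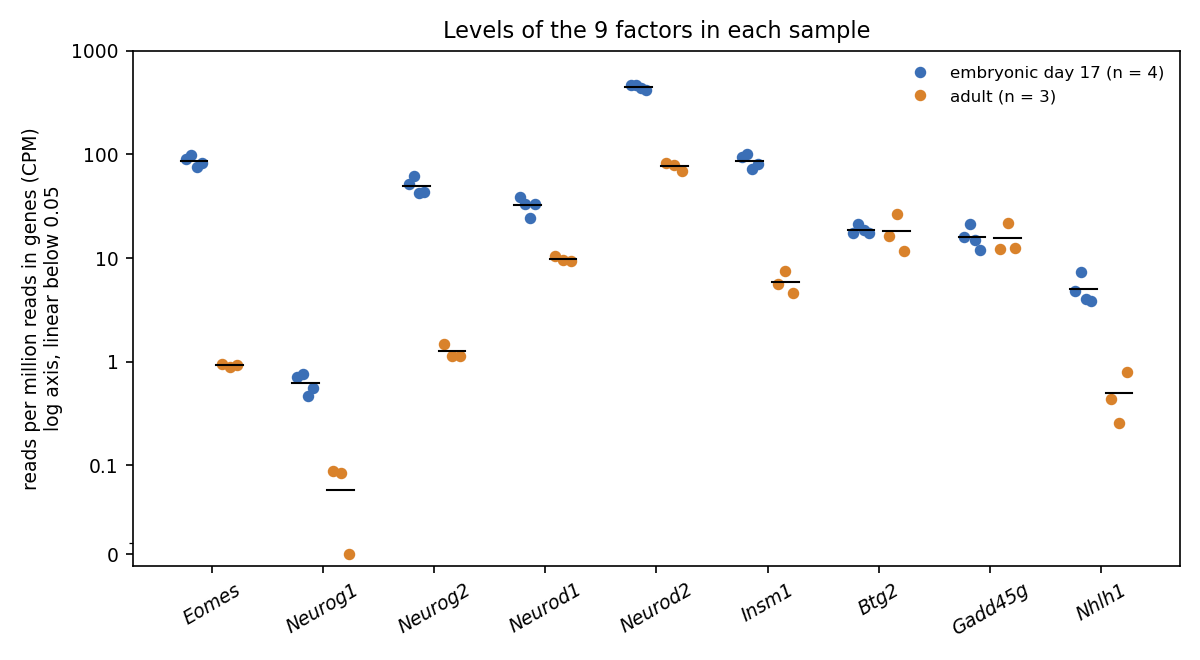
Levels of the 9 genes, with the vertical axis in CPM on a log scale that is linear below 0.05; each point is 1 sample (blue, 4 embryonic; orange, 3 adult) and each black line a group mean. The groups are apart for 7 genes, from Eomes, at 74.9 CPM or more in the embryo and 0.960 CPM or less in the adult, to Neurod1, and overlap for Btg2 and Gadd45g.

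Factors of young and maturing neurons fell too. Neurod2 and Neurod1 still had at least 212 reads in each adult sample, whereas Nhlh1 had 18 or fewer. Neurod2, which acts in postmitotic glutamatergic neurons and stays on in the mature cortex, measured 471.9, 465 and 436 CPM in embryonic replicates 1 to 3 and 415 CPM in embryonic replicate 4. In the adult it stood at 82.2, 79.6 and 69.1 CPM, from 1570 to 1883 reads, all below the embryonic values. The mean fell 5.81-fold, from 447 ± 26.4 to 76.9 ± 6.95 CPM (difference -2.44, SE 0.08, limma adjusted p = 9.50e-12).

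Neurod1, which acts as neurons leave the progenitor state, had 38.9, 32.9, 24.3 and 33.1 CPM in the embryonic samples and 10.4, 9.62 and 9.33 CPM in the adults. It fell 3.30-fold, from 32.3 ± 6.02 to 9.79 ± 0.572 CPM (difference -1.55, SE 0.13, limma adjusted p = 1.07e-07). This was the smallest of the 7 falls on the deposited scale, and 7.30% of all genes tested had a more negative difference. In GENCODE M21 the span of Neurod1 overlaps Cerkl on the same strand and Gm26755 on the other, and that of Eomes overlaps Gm33460 on the other strand. No source used here says whether strand entered the counting, and reads of these neighbours cannot be told apart from those of Neurod1 and Eomes.

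The value of Neurod1 minus that of Neurod2 rose from -3.77 ± 0.248 in embryonic to -2.88 ± 0.0814 in adult samples (n = 4 and n = 3, exact permutation p = 0.0286, adjusted p = 0.0381). Neurod1 thus fell by less than its relative, by 0.89 on the log2-like scale, and all adult values lay above all embryonic ones.

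Nhlh1, a bHLH factor of newborn neurons, stood at 4.83, 7.35, 4.05 and 3.84 CPM in the embryonic samples. The adults held 0.436, 0.254 and 0.792 CPM, which is 6 to 18 reads. Its mean fell 10.1-fold (difference -2.68, SE 0.27, limma adjusted p = 5.73e-07), and its spread within each group was the widest of the 7 relative to the mean, apart from Neurog1 in the adult.

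**Figure D2:**
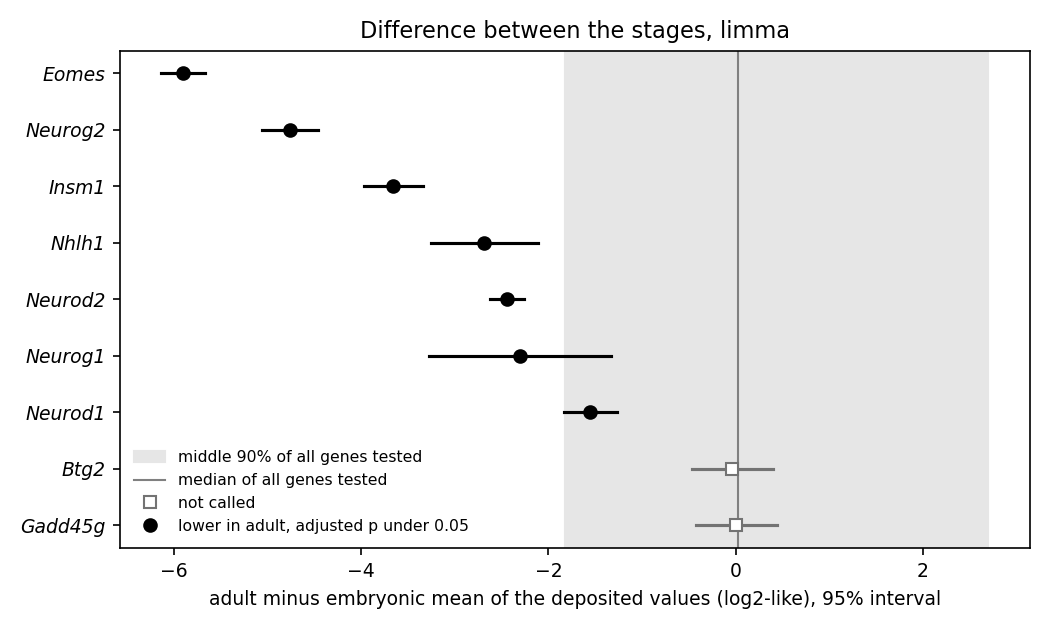
Difference between the stages for each gene, on the horizontal axis, as adult minus embryonic mean of the deposited values with its 95% interval from limma; filled points passed the test and open squares did not. The grey band runs from percentile 5 to percentile 95 of all genes tested, -1.82 to 2.70, and the points run from Eomes at -5.90 to Gadd45g at 0.0091.

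Btg2 and Gadd45g, the cell cycle inhibitors of the group, overlapped between the stages and did not pass the test. Btg2, a transcriptional coregulator that marks progenitors about to make neurons and is also induced by stimuli, had 17.6, 21.4, 18.5 and 17.5 CPM in the embryonic samples. Its adult values were 16.3, 26.7 and 11.6 CPM, so that adult replicate 2 was the highest of all 7 samples and adult replicate 3 the lowest. The difference was -0.033 (SE 0.20, 95% interval -0.46 to 0.40, limma adjusted p = 0.89).

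Gadd45g, a growth arrest gene that is also stimulus-induced, measured 16.1, 21.3, 15.1 and 12.1 CPM in the embryo and 12.3, 21.9 and 12.4 CPM in the adult. Adult replicate 2 was again the highest of the 7 samples, close to embryonic replicate 2. The difference was 0.0091 (SE 0.20, 95% interval -0.43 to 0.44, limma adjusted p = 0.971), with its sign turned when samples were centred on their medians (-0.17). These intervals reach from a fall of 0.46 to a rise of 0.44, so they do not show that the levels were equal.

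Activity-regulated genes shared the peak in adult replicate 2, but most of them did not share the level across stages. Of the 10, 8 were called higher in the adult, against 35.8% of all genes tested. Dusp1 (25.3 ± 2.38 CPM in embryonic and 35.3 ± 17.7 CPM in adult samples) overlapped between the stages and was not called. The same held for Ier2 (6.85 ± 1.34 and 9.85 ± 6.68 CPM). The 10 genes of that list summed to 48.3 to 57.1 CPM in the embryonic samples and to 474, 1329 and 333 CPM in adult replicates 1 to 3. Egr1, a transcription factor of that list, had 170.4, 389 and 121 CPM in the adults, and Arc, a synaptic plasticity gene, had 125, 445 and 89.5 CPM. Among the adults all 10 were highest in replicate 2, as were Btg2, Gadd45g and Insm1 among the 9 genes, and none of the other 6 was. So were 13 of 20 Notch pathway, 7 of 10 cell cycle and 6 of 11 radial glia genes. The counts were 5 of 13 for bHLH partners and inhibitors, 4 of 13 for family relatives and 6 of 18 for later genes. A peak in adult replicate 2 is thus not particular to these genes. The part of the activity-regulated genes in the level of Btg2 and Gadd45g was not tested. Without adult replicate 2, Btg2 was called lower in the adult (difference -0.35, limma adjusted p = 0.039), and 8 of the 9 genes were called lower, against 32.9% of all genes tested. Gadd45g was not called without it (difference -0.26, adjusted p = 0.194 in limma).

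The value of Btg2 minus that of Gadd45g was 0.231 ± 0.219 in embryonic and 0.189 ± 0.251 in adult samples (n = 4 and n = 3), and the pair did not separate (exact permutation p = 0.771, adjusted p = 0.771).

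**Figure D3:**
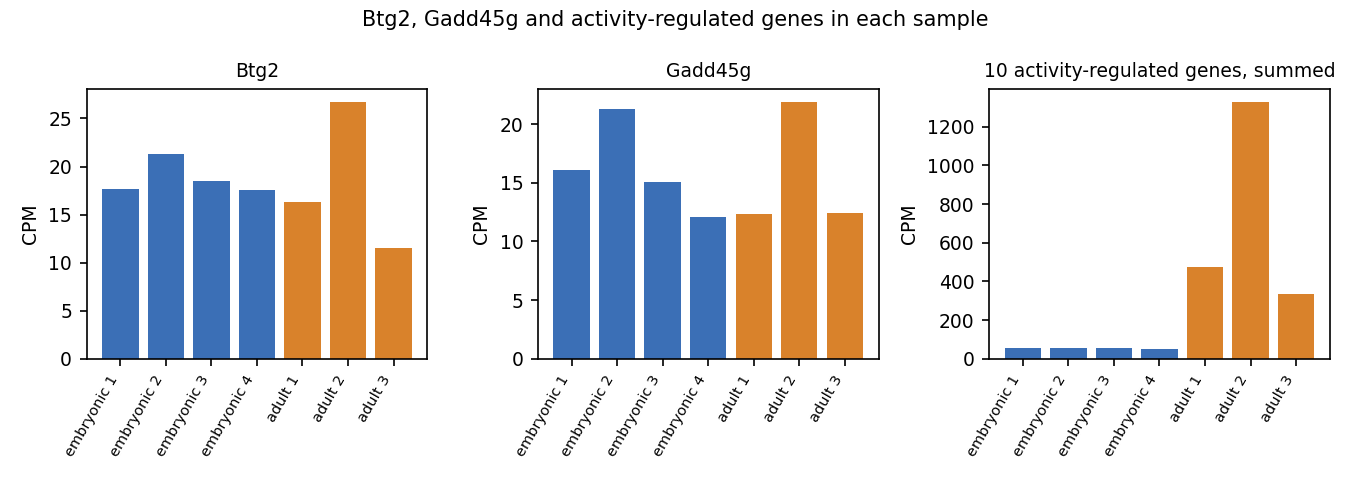
CPM in each of the 7 samples, on the vertical axes, of Btg2, of Gadd45g and of 10 activity-regulated genes summed (blue, embryonic; orange, adult). All 3 panels peak in adult replicate 2, at 26.7, 21.9 and 1329 CPM, while the embryonic samples are at 57.1 CPM or less in the third panel.

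Compared per kilobase of exon (union of GENCODE M21 exons), Neurod2 was the highest of the 9 genes at both stages, with 142 ± 8.42 CPM per kb before birth and 24.5 ± 2.21 in the adult. Among embryonic levels it was followed by Insm1 (28.0 ± 4.13 CPM per kb), Neurog2 (22.3 ± 4.03), Eomes (20.9 ± 2.56), Gadd45g (13.7 ± 3.27) and Neurod1 (11.8 ± 2.20). Neighbours from Insm1 to Neurod1 overlapped in their sample values. Btg2 (6.83 ± 0.653 CPM per kb), Nhlh1 (2.04 ± 0.656) and Neurog1 (0.368 ± 0.0777) came last, each apart from the next.

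In the adult the order was another. Gadd45g (13.3 ± 4.69 CPM per kb) and Btg2 (6.64 ± 2.83) moved up behind Neurod2, followed by Neurod1 (3.59 ± 0.210), Insm1 (1.90 ± 0.469) and Neurog2 (0.564 ± 0.0881). Eomes (0.222 ± 0.00847 CPM per kb) and Nhlh1 (0.201 ± 0.111) overlapped, and Neurog1 was last (0.0340 ± 0.0295). Eomes thus went from the fourth to the seventh place.

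The embryonic samples differed among themselves in a shared way. Of the 9 genes, 7 were highest in embryonic replicate 2, all but Neurod1 and Neurod2, which were highest in embryonic replicate 1. Embryonic replicate 3 was the lowest for 5 genes, namely Eomes, Neurog1, Neurog2, Neurod1 and Insm1. The range over the 4 samples spanned 12.8% of the mean for Neurod2, 28.7% for Eomes, 39.4% for Neurog2 and 70.1% for Nhlh1. The 10 cell cycle genes listed for comparison summed to 991 CPM in embryonic replicate 1, 1070 in replicate 2, 791 in replicate 3 and 854 in replicate 4, with the highest and lowest sums in the same samples as for Eomes. All 6 markers of the ganglionic eminence and of subventricular neuroblasts were also highest in embryonic replicate 2, with sums of 233, 264, 210.4 and 207 CPM in replicates 1 to 4. Zic1, a transcription factor listed as a marker of cerebellar granule cells, had 46.9, 82.9, 26.1 and 54.2 CPM. Of the 4 markers on its list, only Zic1 was highest in embryonic replicate 2. Cbln1, Cbln3 and Gabra6 were highest in embryonic replicate 3. Embryonic replicate 2 was also highest for 10 of 10 cell cycle, 11 of 20 Notch pathway and 8 of 18 later genes. The counts were 6 of 13 for family relatives, 5 of 13 for bHLH partners and inhibitors and 5 of 10 for activity-regulated genes. They were 3 of 11 for radial glia genes, 1 of 5 for excitatory neuron markers and 0 of 4 for Cajal-Retzius markers. The share over all genes is not given here. The part of dividing cells and of these other cells in the spread was not tested.

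**Figure D4:**
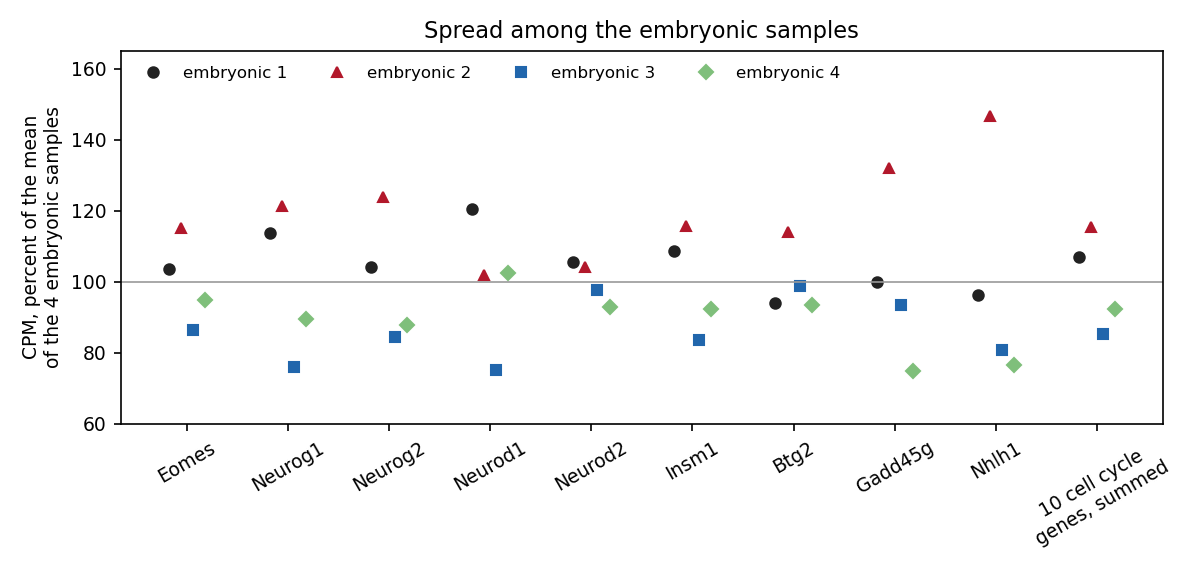
CPM of each of the 9 genes, and of 10 cell cycle genes summed, in the 4 embryonic samples, as a percentage of their mean on the vertical axis; each marker shape is 1 sample. Embryonic replicate 2 (triangles) is highest for 7 of the 9 genes and reaches 147% of the mean in Nhlh1, and Neurod2 has the narrowest spread.

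Around these factors, the partners of bHLH proteins were mostly lower in the adult. Of 12 tested bHLH partners, relatives and inhibitors, 9 fell and 3 rose, with a median difference of -1.48 against 0.03 over all genes tested. Neurod6, a relative of Neurod2 in glutamatergic neurons, fell from 487 ± 17.9 to 54.3 ± 5.52 CPM, and Nhlh2 fell from 8.44 ± 0.707 to 1.27 ± 0.410 CPM. The E proteins Tcf3, Tcf4 and Tcf12, the dimer partners of proneural factors, were among the 9, and Tcf4 went from 860.0 ± 94.1 to 295 ± 17.8 CPM. Id1, Id3 and Id4, which block bHLH proteins, rose, whereas Id2 fell from 146 ± 10.5 to 69.8 ± 12.5 CPM. Id3 went from 8.09 ± 0.939 to 19.7 ± 2.16 CPM and Id4 from 35.7 ± 5.37 to 46.04 ± 6.35 CPM. The calls of Id1 and Id4 were lost after centring on the medians (limma adjusted p = 0.123 and 0.067) and without the filter on low values (0.0671 and 0.0705).

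Relatives of the 9 genes in their own families went both ways, with 6 lower and 5 higher of 12 tested, and a median difference of -0.59. The lists share genes, so their counts are not independent. Neurod4, Neurod6 and Nhlh2 are also on the bHLH list, and Tbr1 and Neurod6 on that of later genes. Bhlhe22 is on the bHLH list and that of later genes. Neurog3 was not tested, with at most 1 read in a sample. Besides Neurod6 and Nhlh2, the T-box factor Tbr1 fell from 266 ± 21.3 to 97.6 ± 10.6 CPM, while the olfactory bulb T-box gene Tbx21 was not called, at 0.212 ± 0.0774 and 0.174 ± 0.152 CPM. Gadd45b rose from 0.992 ± 0.283 to 11.2 ± 4.14 CPM and was highest in adult replicate 2. Btg3 rose from 4.92 ± 0.647 to 11.5 ± 1.63 CPM, and Btg1 fell from 70.1 ± 1.97 to 21.2 ± 2.08 CPM.

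Notch pathway genes fell in 12 and rose in 6 of 20 cases, with a median difference of -0.51. Hes6, which favours neuronal differentiation, fell from 62.7 ± 6.49 to 10.3 ± 1.13 CPM, and Mfng, a glycosyltransferase that modifies Notch, from 18.5 ± 3.13 to 2.98 ± 0.702 CPM. The ligand Dll1, a known target of proneural factors, fell from 29.0 ± 2.87 to 6.62 ± 0.595 CPM. Hey1, a repressor downstream of Notch, rose from 13.9 ± 0.667 to 47.6 ± 4.05 CPM, and Numb, a Notch inhibitor, from 18.1 ± 1.16 to 47.8 ± 3.42 CPM. The effector Hes5 was not called (10.7 ± 1.25 and 11.7 ± 2.76 CPM).

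Genes that act after the proneural factors fell in 15 of 18 cases and rose in 1, with a median difference of -1.18. The most changed were Dcx, a microtubule protein of migrating neurons, from 1859 ± 204 to 38.6 ± 4.002 CPM, and Sox11, a factor of immature neurons, from 379 ± 82.3 to 7.79 ± 1.72 CPM. Rnd2, a small GTPase that Neurog2 activates in migrating neurons, rose from 66.6 ± 11.01 to 89.3 ± 16.6 CPM, with overlapping groups (limma adjusted p = 0.0052). It was the 1 gene of its list called higher, and the call was lost without the filter on low values (limma adjusted p = 0.0868) and near the threshold after centring (0.0492). Radial glia genes fell in 9 and rose in 2 of 11 cases (median difference -1.28), and cell cycle genes fell in 9 and rose in 1 of 10 (median difference -3.08). Tnc, a matrix protein, went from 337 ± 10.9 to 8.12 ± 3.76 CPM and Fabp7, a lipid-binding protein of radial glia, from 435 ± 35.5 to 18.9 ± 14.8 CPM. Slc1a3, a glutamate transporter that astrocytes share, rose from 133 ± 6.00 to 526 ± 38.2 CPM, and Hopx from 5.19 ± 0.726 to 18.9 ± 2.07 CPM. Top2a, a topoisomerase of dividing cells, fell from 144 ± 19.1 to 2.58 ± 1.19 CPM. Mki67, a protein of cycling cells, dropped to 3.34 ± 0.800 CPM from 178 ± 35.4 CPM. Pax6, a transcription factor upstream of Neurog2, fell from 47.9 ± 8.17 to 8.14 ± 0.452 CPM. Ccnd1, a G1 cyclin, was the cell cycle gene that rose, from 32.5 ± 3.02 to 50.1 ± 3.16 CPM.

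**Figure D5:**
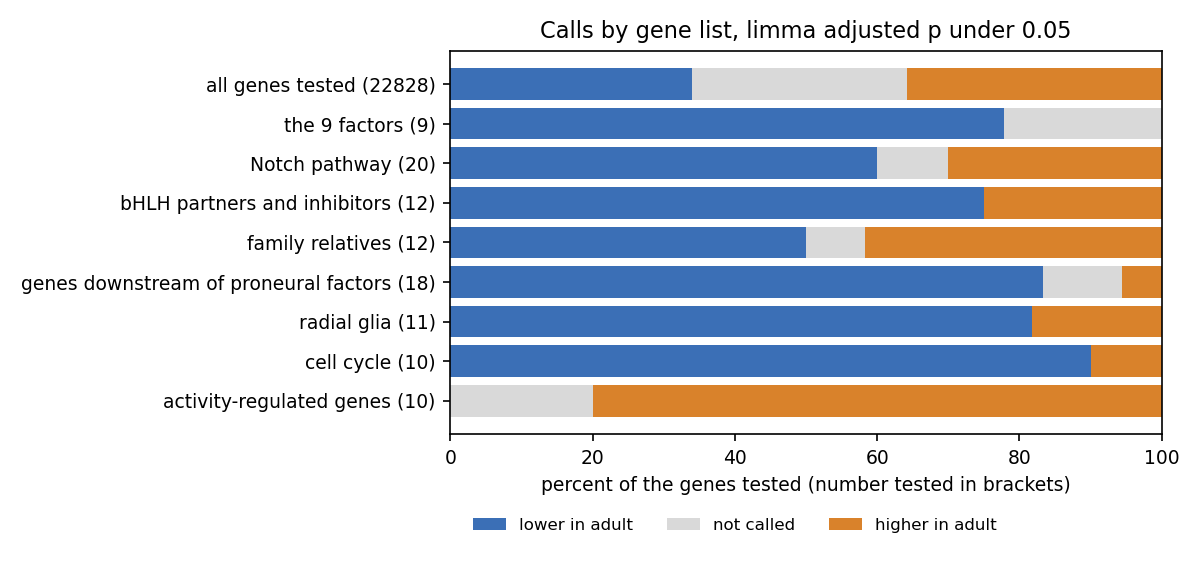
Share of the genes tested in each list that were lower (blue), not called (grey) or higher (orange) in the adult, on the horizontal axis in percent. The 9 factors have 7 lower and 2 not called, the activity-regulated genes 8 higher of 10, and all 22828 genes tested have 33.9% lower and 35.8% higher.

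The genes whose 7 centred values lay nearest to those of Eomes were Mex3a (root mean square distance 0.166 on the deposited scale, over 7 samples), Adamts7 (0.202) and Dcx (0.254). Mex3a went from 369.5 ± 26.2 to 4.90 ± 0.947 CPM. For Neurod2 they were Kcnk10 (0.0619), Panx1 (0.0882) and Gm11266 (0.0959). Panx1 went from 86.8 ± 2.04 to 14.2 ± 0.467 CPM. These distances rest mainly on the step between the 2 groups.

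Some of the 9 genes are also known from other cells that a cortex sample can hold. Eomes is made by projection neurons of the olfactory bulb, by Cajal-Retzius cells and by lymphocytes, and Neurod1 by granule cells of the dentate gyrus and cerebellum. The 3 olfactory bulb markers, Tbx21, Cdhr1 and Doc2g, summed to 12.2 to 15.7 CPM in the embryo and 9.16 to 9.55 CPM in the adult, with 1 lower, 1 higher and 1 not called. All 4 Cajal-Retzius markers fell, with sums of 338 to 448 CPM against 95.7 to 117 CPM. Reln made up most of these sums, with 320 to 427 CPM in the embryo and 92.8 to 113 CPM in the adult. Trp73 went from 12.9 ± 1.32 to 2.15 ± 0.365 CPM. The 6 markers of T and NK cells summed to 0 to 0.0462 CPM in the embryo and 0.0847 to 0.480 CPM in the adult, and none was tested. Cd3e, Cd3g, Nkg7 and Ncr1 were at 0 reads in every embryonic sample.

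All 4 dentate granule cell markers were higher in the adult, with sums of 39.8 to 46.7 CPM against 12.5 to 16.7 CPM in the embryo, among them Prox1, a transcription factor that granule cells keep. The 4 cerebellar granule cell markers summed to 38.3 to 93.5 CPM in the embryo and 43.8 to 61.3 CPM in the adult, and 1 was higher and 1 lower. Zic1 made up most of these sums, with 26.1 to 82.9 CPM in the embryo and 35.4 to 52.3 CPM in the adult. Gabra6 had at most 2 reads in an embryonic sample. Of 6 markers of the ganglionic eminence and of subventricular neuroblasts, 5 fell, from sums of 207 to 264 CPM to sums of 44.3 to 52.3 CPM. All 4 choroid plexus markers were higher in the adult, at 583 to 717 CPM against 0.651 to 1.201 CPM. The part of these cells in the levels of the 9 genes was not tested.

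Exon values were used for Neurod2, Gadd45g and Btg2, and exons of the other 6 genes were not analysed here. The authors' header calls each value 1 over a ratio. The values step as whole numbers do, and 100 divided by that number is given below as the exon ratio in percent. The source does not say what the ratio is taken over, and the ratios of the 4 Gadd45g exons sum past 100%, so they are not parts of a whole. They are coarse and were not tested. Positions are those the authors list in mm9.

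Neurod2, on the minus strand, had its upstream exon at position 98190748 of chromosome 11. Its ratio was 0.725, 0.649, 0.671 and 0.667% in embryonic replicates 1 to 4, and 1.69, 1.06 and 1.33% in adult replicates 1 to 3. All adult ratios lay above all embryonic ones, while the exon at 98186731 stood at 100% in all 7 samples. Gadd45g had 4 exons on chromosome 13. The exon at 51942721 had ratios of 20 to 25% in the embryo and 12.5 to 16.7% in the adult, and the one at 51942044 had 14.3 to 16.7% and 11.1 to 12.5%. These ranges were apart by 1 step of the whole number. The share of all exons with groups apart is not given here, so the gaps in Gadd45g and Neurod2 cannot be set against it. The exon at 51942925 had 25 to 33.3% at both stages, and the exon at 51943238 stood at 50% in all 7 samples. In Btg2, the upstream exon at 135975489 of chromosome 1 had 10.4 ± 3.05% at the embryonic and 10.2 ± 1.60% at the adult stage, which differed by less than the spread.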

How the data were processed

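Gene and exon tables of 7 samples were used, 14 columns in all. The gene values are on a log2-like scale that the authors name variance-stabilized, by a tool that no source used here names. The exon values are a score, 1 over a ratio per the file headers, deposited by the authors. The submitters' processing notes name, with no role, HTSeq 0.5.3p3, SAMtools 0.1.7a, Bowtie 0.12.7.0, TopHat 1.0.13, CASAVA 1.7.1 and the build mm9.

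Each gene column steps through a smooth function of whole numbers, so read counts were recovered. The lowest 40 steps were assigned in order, and every later value came within 0.1 of a whole number. The recovery and the limma fit were checked on simulated data. Replicates were compared by chi-square over genes, and the statistic divided by its degrees of freedom was 5.11 to 19.0, so no pair agreed within sampling noise.

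limma 3.58.1 under R 4.3.3 (trend, no covariate, two-sided, Benjamini-Hochberg over all genes, threshold 0.05) was run on the deposited values. Genes at the lowest value in more than 3 samples were left out. Pairs of the 9 genes were compared by two-sided exact permutation tests. Alternatives were no filter, no trend, median centring, voom with TMM on recovered counts, a replicate block and leaving out each sample. The 9 genes, the lists and the tests were chosen with earlier results of these data known, and the motifs and printed promoters with the sequences in view. From each list the 2 called genes with the largest difference in each direction and groups apart were named, and other list genes were chosen after their values were seen. For Eomes and Neurod2 the 3 nearest genes by distance were named. Intervals and limits on counts cover counting error only.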

Additional observations from a re-analysis of the deposited data

How the results depend on the processing

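The count of members lower in the adult was 7 without the filter on low values, after centring on the medians, without the trend, in voom with TMM scaling on the recovered counts and with the replicate number as a block, and ranged from 7 to 8 when 1 sample at a time was left out. Deviations from the group means correlated weakly between same-numbered samples (0.00879, 0.0567 and 0.0405). Differently numbered samples ran from -0.0475 to 0.0617, most of them below 0. Such small values cannot settle whether the numbers pair the samples. The replicate block, in which embryonic replicate 4 has no partner and adds nothing to the difference, changed no call among the members. The 7 falling genes kept their direction and call in all 12 alternatives each. With samples left out, Eomes ranged from -5.96 to -5.83, Neurog2 from -4.86 to -4.65, Neurog1 from -2.62 to -1.66, Btg2 from -0.35 to 0.24 and Gadd45g from -0.26 to 0.15. Gadd45g turned to -0.12 with the replicate block, -0.17 after centring and -0.025 in voom, always uncalled. The bHLH list had 1 higher gene without the filter or after centring, against 3. The list of later genes had 0 higher without the filter and 1 to 2 with samples left out. Genes called lower without the filter were 9 in the Notch list, against 12, and 13 among later genes, against 15. They were 8 for radial glia, against 9, and 5 for family relatives, against 6. With 6 samples the permutations allow no adjusted p under 0.05 (0.0889 to 0.133 for the 3 pairs that passed): Eomes minus Insm1 ranged from -2.39 to -2.05, Neurod1 minus Neurod2 from 0.78 to 0.96, Neurog1 minus Neurog2 from 2.10 to 3.05 and Btg2 minus Gadd45g from -0.14 to 0.10. On log2 CPM with a pseudocount of 0.5, the Eomes and Insm1 pair and the Neurod pair had an adjusted p of 0.0381 again. For Neurog1, at 0.753 CPM or less, that pseudocount largely sets the value, so the setting says nothing of its pair. Depth limits Neurog1 and Nhlh1, with 0 to 18 reads per adult sample.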
